A study of Mus musculus with 22 samples.

Results

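The chondrogenic Sox factors and 2 of their partners were described here across mouse chondrocytes and cartilage of controls and of Dnmt1 conditional knockouts. The 8 genes were Sox9, Sox5 and Sox6, known together as the Sox trio, Sox8, Sox4 and Sox11, and the transcription factor genes Nkx3-2 and Trps1. They were chosen by name and matched by exact gene symbol: all 8 were among the 34866 genes of each culture table, and 7 were among the 23911 genes of the whole-number cartilage table, which did not list Nkx3-2. The 22 samples fell into 6 groups. Controls carried Dnmt1 alleles with loxP sites (genotype Dnmt1 flox) and no Cre is named for them, while conditional knockouts (cKO) were Prrx1-Cre;Dnmt1 flox/flox. The Prrx1 promoter element drives Cre in limb mesenchyme, so the deletion precedes the chondrocyte and also reaches other limb cells of that origin. Primary chondrocytes of knee articular cartilage were sampled untreated (day 0, 3 control and 3 cKO cultures) or on day 3 of treatment with BMP2, a growth factor that promotes chondrocyte differentiation, at a labelled 100 ng/µl (4 control and 4 cKO cultures). Cartilage of mice at postnatal day 5, digested with collagenase, gave 4 control and 4 cKO samples, with replicates 1 and 2 male and replicates 3 and 4 female in each genotype.

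SOX proteins bind DNA through a high-mobility-group box. SOX9 is the factor without which cartilage does not form, and SOX5 and SOX6, which lack a transactivation domain of their own, bind beside it at enhancers of cartilage matrix genes such as Col2a1 and Acan. SOX8 belongs to the same subgroup as SOX9, SOX4 and SOX11 act in skeletal progenitors, NKX3-2 is a repressor that favours the chondrocyte fate and delays maturation, and TRPS1 is a GATA-type repressor active in the growth plate. DNMT1 copies CpG methylation onto the new DNA strand at replication; methylation itself was not measured in these samples.

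Since the deleted enzyme acts on CpG, the 250 bases before a RefSeq start site are shown for 3 members. Their windows held more (Sox8, Sox11) or fewer (Sox5) CpG than the median window given below, and each CpG is in capitals. The windows are RefSeq sequences on GRCm38.p6, and such windows were found for 6 of the 8 members. All 3 lie on the minus strand and are written 5′ to 3′.
Sox8, chr17:25570687-25570936: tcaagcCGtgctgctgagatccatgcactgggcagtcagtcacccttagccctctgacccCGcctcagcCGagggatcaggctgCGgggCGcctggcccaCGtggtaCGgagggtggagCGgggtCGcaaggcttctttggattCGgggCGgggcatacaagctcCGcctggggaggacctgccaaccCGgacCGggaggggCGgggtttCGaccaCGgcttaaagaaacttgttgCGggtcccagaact
Sox11, chr12:27342719-27342968: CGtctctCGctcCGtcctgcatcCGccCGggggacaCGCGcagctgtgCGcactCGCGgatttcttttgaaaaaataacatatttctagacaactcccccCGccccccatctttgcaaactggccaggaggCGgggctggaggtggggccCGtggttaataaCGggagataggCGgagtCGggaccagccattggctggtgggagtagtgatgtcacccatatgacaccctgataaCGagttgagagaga
Sox5, chr6:143947107-143947356: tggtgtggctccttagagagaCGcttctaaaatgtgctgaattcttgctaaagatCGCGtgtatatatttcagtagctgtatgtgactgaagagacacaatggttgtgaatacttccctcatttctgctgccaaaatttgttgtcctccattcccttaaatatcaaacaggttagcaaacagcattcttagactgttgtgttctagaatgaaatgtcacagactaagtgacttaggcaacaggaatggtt
The CpG (letters CG, which read the same on both strands) occurred 18 times in the Sox8 window, 17 times in the Sox11 window and 3 times in the Sox5 window. Over 32851 windows of the same length the median was 6, the lower quartile 2 and the upper quartile 16, and 92.1% held at least 1. The Sox8 window lay wholly within exons of 2810468N07Rik, a gene on the opposite strand, and the Sox5 window precedes a start inside the gene. The window of Nkx3-2 held 21 CpG, and all its 250 bases lay within exons of Nkx3-2 itself in GENCODE. That of Sox4 held 11, and Sox6 had several starts with windows of 1 to 10 CpG.

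All positions are on GRCm38 from GENCODE M21. Sox9 lies at chr11:112782224-112787760 (plus strand), and the other members lie on minus strands: Sox5 at chr6:143828425-144781977, Sox6 at chr7:115470872-116038796, Sox8 at chr17:25565892-25570686, Sox4 at chr13:28948919-28953713, Sox11 at chr12:27334264-27342574, Nkx3-2 at chr5:41761483-41764501 and Trps1 at chr15:50654752-50890463. Exons on the opposite strand overlap those of Sox5 (Sox5os1), Sox4 (Gm26735) and Sox8 (2810468N07Rik), and the microRNA gene Mir1907 overlaps an exon of Trps1 on its own strand. The sources used here do not state whether counting used strand, so reads of these partners cannot be told apart from those of the members.

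The total count of a library was 41749327 to 51741478 in day 0 cultures, 14434197 to 18918714 in day 3 cultures and 1100198 to 1888896 in cartilage. Levels are given as CPM, counts relative to the library total scaled by TMM, on 1 scale for all cultures and on another for cartilage. Dnmt1 was lower in cKO in each setting, at 26.8 to 32.7 against 153 to 166 CPM at day 0, 10.9 to 35.6 against 63.2 to 81.5 CPM at day 3, and 11.5 to 13.9 against 33.7 to 47.7 CPM in cartilage. Replicate 4 of cKO at day 3 stood apart from its group: the 9 chondrocyte markers (Col2a1, Acan and others) summed to 1644 CPM there, 13058 to 18341 CPM in the other cKO cultures and 100237 to 123190 CPM in the day 3 controls. At day 0 the same sum was 54646 to 66504 CPM in cKO and 151519 to 160023 CPM in controls, and in cartilage 32739 to 62084 against 68145 to 101151 CPM. The 10 skeletal muscle markers moved the other way, from 1.65 to 2.17 CPM in day 3 controls, where Myod1, Myog and Myf5 were at or under 3 counts, to 155 to 2071 CPM in day 3 cKO, with Myf5 still at or under 3 counts. Replicate 4 of cKO held the 155 CPM, and the other day 3 cKO cultures held 1225, 1692 and 2071 CPM. Its Dnmt1 was also the lowest of its group, at 10.9 CPM against 22.2 to 35.6 CPM in the others. The muscle markers summed to 12.8 to 14.4 CPM in control and 74.4 to 79.2 CPM in cKO at day 0, and to 12.5 to 16.9 and 57.3 to 88.7 CPM in cartilage, where 8 of the 10 were listed. Of the other cell types, the 6 osteoblast markers summed to 3644 to 5031 CPM in control and 6530 to 8666 CPM in cKO at day 3. They went the other way at day 0, at 1581 to 2803 CPM in control and 1187 to 1505 CPM in cKO. In cartilage they summed to 27393 to 54791 CPM in control and 13090 to 32726 CPM in cKO, which overlapped. The 4 adipocyte markers summed to 1.36 to 2.81 CPM in day 3 controls, with Cidec and Adipoq at or under 3 counts, and to 26.5 to 39.7 CPM in day 3 cKO. At day 0 they summed to 0.901 to 1.14 CPM in control and 2.37 to 4.49 CPM in cKO, with both genes at or under 3 counts. In cartilage 2 of 3 blood and macrophage markers tested were called lower in cKO (median log2 fold change -1.90), against 3.04% of all genes. Their list summed to 20.5 to 337 CPM in cKO and 156 to 759 CPM in control there, which overlapped. The 6 markers of that list summed higher in cKO cultures, at 4.50 to 5.71 against 2.53 to 3.25 CPM at day 0. At day 3 their sums were 8.43 to 17.5 CPM in cKO and 4.80 to 7.16 CPM in control. Hbb-bs and Hba-a1 were at or under 3 counts in all cultures. The Schwann cell sum was lower in cKO at day 0 (5.45 to 7.16 against 8.87 to 9.26 CPM) and day 3 (2.42 to 4.33 against 5.76 to 8.43 CPM). The endothelial sum was higher in cKO at both times, at most 3.83 CPM. The tendon and fibroblast sum was lower in cKO at day 0 (1120 to 1303 against 1602 to 1948 CPM) and overlapped at day 3. In cartilage the sums of these lists and of the adipocyte markers overlapped. The chondrocyte and muscle sums moved with genotype beside every difference given below, and the part of all these markers in the results was not tested. In bulk RNA, fewer cells of a type and less RNA per cell cannot be told apart. For cartilage, the controls were sequenced as 1 barcoded pool and the cKO samples as another, so pool and genotype cannot be told apart there.

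**Figure D1:**
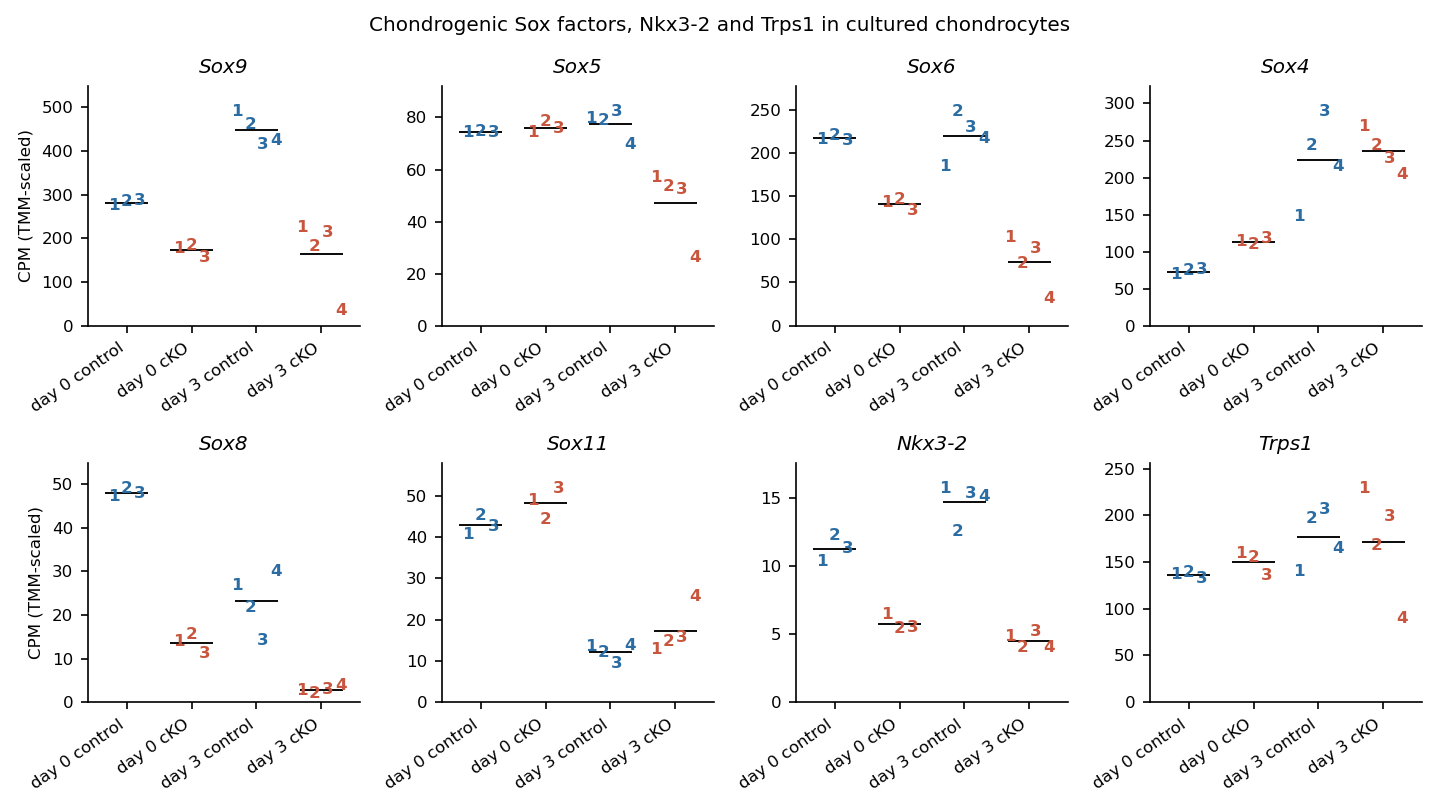
Each panel plots 1 gene, with the culture group on the x axis and TMM-scaled CPM on the y axis from 0; each digit is 1 library, named by its replicate number (blue control, red cKO), and the line is the group mean. Sox8 and Nkx3-2 lie lower in every cKO library at both times, and replicate 4 of day 3 cKO lies apart for Sox9 at 34.2 CPM.

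Sox9, the master regulator of the chondrocyte, was lower in cKO in both culture settings. At day 0 it stood at 275, 284 and 286 CPM in the control cultures and at 177, 185 and 157 CPM in the cKO cultures. At day 3 the controls held 490.0, 461, 415 and 423 CPM and the cKO cultures 225, 181, 213 and 34.2 CPM. The groups did not overlap at either time, and the last of these cKO values is far under the other 3. The fitted log2 fold change was -0.71 ± 0.055 (SE) at day 0 (edgeR adjusted p = 4.81e-06), or 1.64-fold lower. At day 3 it was -1.45 ± 0.467 (edgeR adjusted p = 0.0315), or 2.72-fold lower. Without replicate 4 of cKO the day 3 value was -1.12 (edgeR adjusted p = 1.44e-05). The day 3 call was lost in 5 of the 8 fits that left out 1 library (replicate 2 of cKO and each control), with adjusted p up to 0.0649. The day 0 call was lost when all 14 cultures shared 1 estimate of spread (edgeR adjusted p = 0.217) and held in that fit without replicate 4 of day 3 cKO (edgeR adjusted p = 1.34e-05).

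In cartilage Sox9 measured 2617, 2462, 2981 and 1996 CPM in controls and 2108, 2324, 1370.0 and 1734 CPM in cKO. The groups overlapped, since the lowest control lay under 2 of the cKO samples. The log2 fold change of -0.43 ± 0.174 did not pass the test (edgeR adjusted p = 0.161). With no filter on low counts it was -0.47 and passed (edgeR adjusted p = 0.0248).

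Sox5, a partner of SOX9 at cartilage enhancers, did not share the day 0 difference. Control cultures held 74.2, 74.5 and 74.1 CPM and cKO cultures 74.2, 78.3 and 75.6 CPM, with a log2 fold change of 0.03 ± 0.032 (edgeR adjusted p = 0.421). At day 3 controls stood at 79.5, 78.8, 82.2 and 69.5 CPM and cKO at 56.8, 53.3, 52.2 and 26.4 CPM. No day 3 cKO culture reached a control, and replicate 4 was again the lowest. The log2 fold change of Sox5 at day 3 was -0.70 ± 0.206 (edgeR adjusted p = 0.0212), and -0.52 without that library. In cartilage it was 190.2, 149, 177 and 137 CPM in controls and 175, 143, 133 and 162 CPM in cKO, with a log2 fold change of -0.08 ± 0.141 (edgeR adjusted p = 0.770).

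Sox6, the other SoxD member of the trio, was lower in cKO at both culture times. At day 0 it was 215, 219.9 and 214 CPM in controls and 143, 146 and 133 CPM in cKO. At day 3 it was 184, 247, 229 and 217 CPM in controls and 102, 72.0, 89.8 and 32.0 CPM in cKO. The groups were apart at both times, and the gap was wider at day 3. The log2 fold change was -0.63 ± 0.039 at day 0 (edgeR adjusted p = 1.24e-06) and -1.56 ± 0.304 at day 3 (edgeR adjusted p = 0.00328), a 1.54-fold and a 2.94-fold lower level. The day 3 value was -1.32 when replicate 4 of cKO was left out. At day 0 the call was lost when all 14 cultures were fitted together (edgeR adjusted p = 0.0955) and held in that fit without replicate 4 of day 3 cKO (edgeR adjusted p = 0.000367). In cartilage Sox6 was 157, 150.1, 133 and 113 CPM in controls and 115, 107, 106 and 101 CPM in cKO, where only the lowest control fell within the cKO range. The difference of -0.36 ± 0.124 did not pass there (edgeR adjusted p = 0.106).

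Sox8, a close relative of Sox9, had the most negative log2 fold change of the members in each genotype comparison. Control cultures at day 0 held 47.1, 49.0 and 47.8 CPM and cKO cultures 13.8, 15.6 and 11.1 CPM. At day 3 the controls held 26.7, 21.8, 14.2 and 29.9 CPM and the cKO cultures 2.59, 1.92, 2.92 and 3.80 CPM, on 39 to 66 counts. No cKO culture came near a control, and replicate 4 of cKO was here the highest of its group. The log2 fold change was -1.83 ± 0.103 at day 0 (edgeR adjusted p = 7.24e-07) and -3.02 ± 0.287 at day 3 (edgeR adjusted p = 8.89e-05), a 3.56-fold and an 8.12-fold lower level. The latter was -3.22 when replicate 4 of day 3 cKO was left out.

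Sox8 was also the one member called in cartilage. It stood at 61.7, 51.7, 63.9 and 46.8 CPM in controls and at 38.5, 34.1, 26.9 and 36.1 CPM in cKO, on 31 to 93 counts per sample. The groups did not overlap. The log2 fold change was -0.71 ± 0.166 (edgeR adjusted p = 0.0196), or 1.63-fold lower. The call rested near the threshold: the adjusted p was 0.091 with DESeq2, 0.0507 on the deposited estimated counts (log2 fold change -0.58), 0.0559 without cKO replicate 3, 0.0631 without control replicate 1 and 0.0599 without control replicate 3.

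Sox4, a SoxC gene of progenitor cells, went the other way at day 0. Controls held 68.5, 74.7 and 76.1 CPM and cKO cultures 114, 109.9 and 117 CPM. It was the only Sox member whose cKO cultures all lay above the controls at day 0, with a log2 fold change of 0.63 ± 0.044 (edgeR adjusted p = 2.40e-06). At day 3 controls ranged from 147 to 289 CPM and cKO from 204 to 268 CPM, and the difference of 0.09 ± 0.190 did not pass (edgeR adjusted p = 0.727). In cartilage it was 103 to 159 CPM in controls and 69.7 to 143 CPM in cKO, with -0.35 ± 0.232 (edgeR adjusted p = 0.398).

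Sox11, the other SoxC gene, did not pass clearly in any genotype comparison. At day 0 it was 40.7, 45.1 and 42.6 CPM in controls and 48.9, 44.2 and 51.8 CPM in cKO. These groups overlapped, and the log2 difference of 0.17 ± 0.064 passed narrowly (edgeR adjusted p = 0.0381); it did not pass in 4 of 6 fits without 1 library. At day 3 controls held 13.6, 11.9, 9.42 and 13.8 CPM and cKO 12.9, 14.7, 15.7 and 25.5 CPM, a difference of 0.52 ± 0.233 that did not pass (edgeR adjusted p = 0.0982). It was 0.25 when replicate 4 of cKO, the highest of these, was left out. Over 6 alternative settings, 5 left the day 3 difference not called and the remaining setting called it. In cartilage the ranges were 80.4 to 138 CPM in controls and 91.3 to 157 CPM in cKO (edgeR adjusted p = 0.774).

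Nkx3-2, the repressor induced early in chondrogenesis, was low and clearly separated by genotype. Day 0 controls held 10.3, 12.2 and 11.3 CPM and cKO cultures 6.41, 5.39 and 5.45 CPM. Day 3 controls held 15.7, 12.5, 15.3 and 15.1 CPM and cKO cultures 4.83, 4.05, 5.16 and 4.03 CPM. The cKO cultures at day 3 lay close together, replicate 4 included. The log2 fold change was -0.97 ± 0.100 at day 0 (edgeR adjusted p = 2.73e-05) and -1.68 ± 0.131 at day 3 (edgeR adjusted p = 3.42e-05), and both calls held in every fit without 1 library. In the deposited estimated counts of cartilage, Nkx3-2 had 1 count in 1 control sample and 0 in the other 7 samples, and each sample's 0 allows up to 3 counts.

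The Trps1 difference between genotypes did not pass the test at day 0, at day 3 or in cartilage. Its culture levels were 132 to 139 CPM in controls and 136 to 159 CPM in cKO at day 0, and 139 to 206 CPM in controls and 89.7 to 229 CPM in cKO at day 3. Replicate 4 of cKO at day 3 was the lowest of all cultures. The day 0 difference was 0.20 and passed when replicate 3 of cKO was left out (edgeR adjusted p = 0.000849). With all libraries the log2 fold changes were 0.14 ± 0.056 at day 0 (edgeR adjusted p = 0.0568), -0.03 ± 0.259 at day 3 (edgeR adjusted p = 0.933) and 0.05 ± 0.141 in cartilage (edgeR adjusted p = 0.861), where controls held 425 to 560.4 CPM and cKO 463 to 569.9 CPM.

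**Figure D2:**
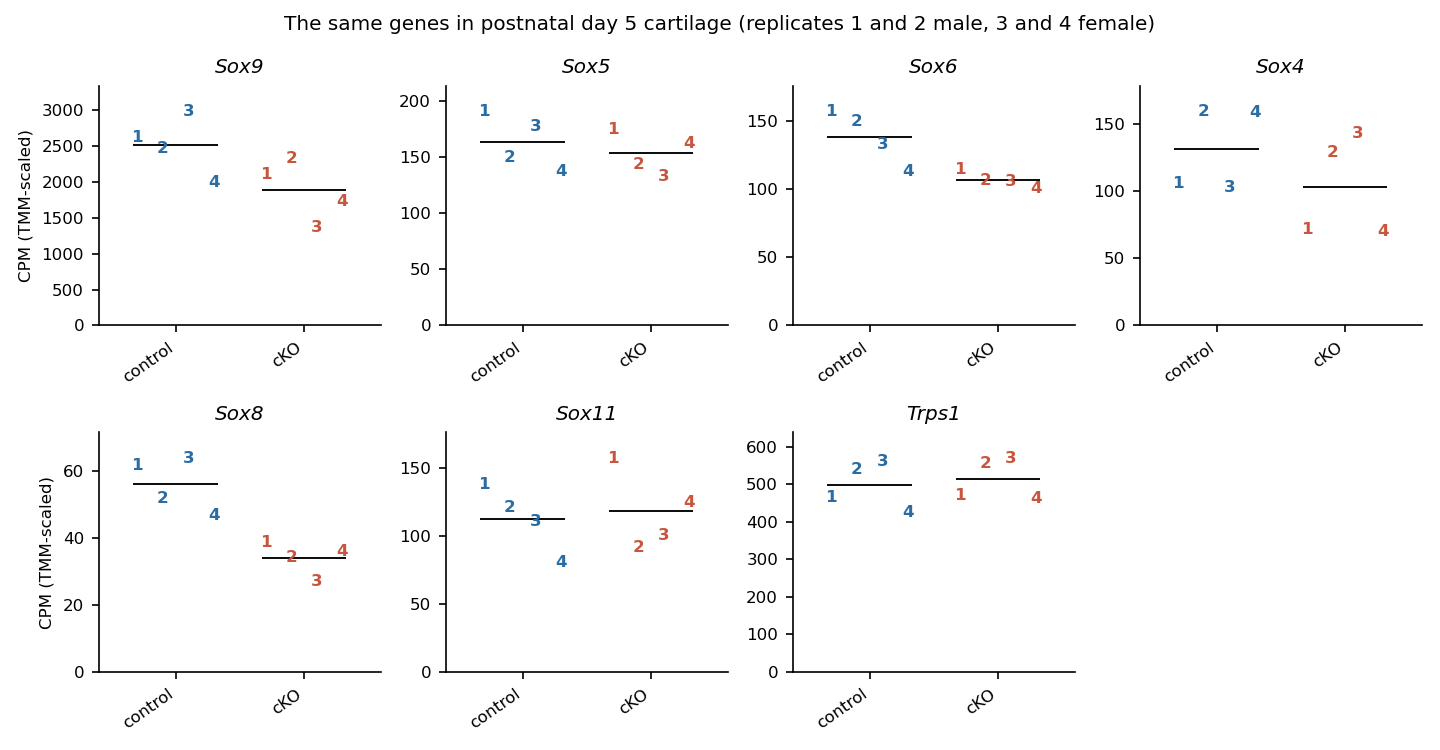
Each panel plots 1 gene in cartilage, with genotype on the x axis and TMM-scaled CPM on the y axis from 0; digits are libraries by replicate number and lines are group means. Sox8 is the gene whose cKO samples (26.9 to 38.5 CPM) all lie under the controls (46.8 to 63.9 CPM).

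Counted over the members, 6 of 8 were called at day 0, with 4 lower (Sox9, Sox6, Sox8, Nkx3-2) and 2 higher (Sox4, Sox11). Of the 15530 genes tested there, 64.5% were called and 31.6% were called lower, so 6 of 8 is close to the share of all genes. The groups did not overlap for 5 members, against 70.4% of all genes. The median log2 fold change of the members was -0.30, against 0.01 over all genes. At day 3, 5 of 8 were called and all 5 were lower (Sox9, Sox5, Sox6, Sox8, Nkx3-2), where 48.1% of 13924 genes were called and 22.6% were called lower. The groups did not overlap for the same 5, against 47.9% of all genes, and the median of the members was -1.07 against 0.01. Without replicate 4 of cKO the count was again 5 of 8, with 55.1% of all genes called. In cartilage, 1 of 7 was called, lower, against 6.19% of 8793 genes called, 3.04% called lower and 13.6% not overlapping; the median of the members was -0.35 against 0.01.

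**Figure D3:**
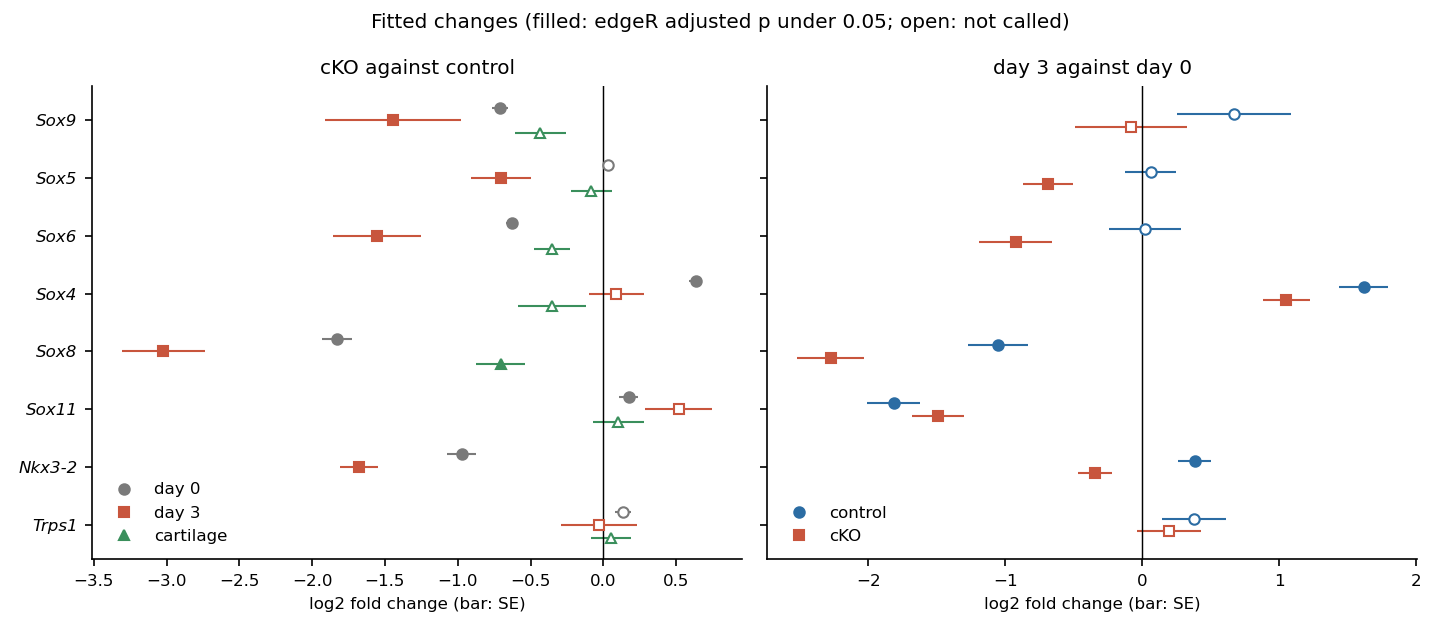
The x axis gives the log2 fold change with its SE as a bar, for cKO against control (left: day 0, day 3 and cartilage) and for day 3 against day 0 (right: control and cKO); filled symbols passed edgeR's adjusted p of 0.05. Sox8 lies farthest to the left in each genotype comparison, at -1.83, -3.02 and -0.71, and Sox4 at day 0 lies at 0.63.

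Whether the genotype effect differed between day 3 and day 0 was tested as the interaction over all 14 cultures. It was negative and passed for 2 of 8 members, against 16.8% of 14909 genes called. The effect at day 3 minus that at day 0 was -1.22 ± 0.332 for Sox8 on the log2 scale (edgeR adjusted p = 0.0252) and -0.73 ± 0.171 for Nkx3-2 (edgeR adjusted p = 0.0124). The Sox8 call was lost in 5 of 14 fits without 1 library, which left out each day 0 control or replicate 1 or 2 of day 0 cKO (adjusted p up to 0.0669). Nkx3-2 held its call in all 14. The trio missed the threshold, with -0.75 ± 0.579 for Sox9 (edgeR adjusted p = 0.420), -0.75 ± 0.262 for Sox5 (edgeR adjusted p = 0.0689) and -0.94 ± 0.376 for Sox6 (edgeR adjusted p = 0.109). Without replicate 4 of day 3 cKO all 3 passed at smaller sizes, -0.41 for Sox9 (edgeR adjusted p = 0.0204), -0.55 for Sox5 (edgeR adjusted p = 0.000257) and -0.69 for Sox6 (edgeR adjusted p = 0.00500); 27.3% of all genes were called in that fit. Without replicate 1 of day 3 cKO, 4 members were called, with Sox5 and Sox6 added. Without replicate 1 of the day 3 controls 3 were called, with Sox4 added (-0.72). In 5 fits, those without replicate 1 or 2 of day 0 cKO or any day 0 control, the count was 1. Over 4 alternative settings with all libraries, Sox5 stayed not called in 2 and was called in the others. Its values over these 4 settings were -0.80 to -0.74.

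Between day 0 and day 3 some members changed in each genotype. Day, BMP2, count table and depth changed together between these times, so they cannot be told apart. The 2 changes share libraries with the genotype comparisons above. In control cultures, 4 of 8 members were called, against 56.9% of 14909 genes. Sox4 rose by 1.61 ± 0.176 on the log2 scale, from 73.1 ± 4.0 (SD, n = 3) to 224 ± 59.5 CPM (SD, n = 4) (edgeR adjusted p = 7.07e-06), and Nkx3-2 rose by 0.38 ± 0.119 (edgeR adjusted p = 0.0148, and 0.0763 without replicate 1 of the day 0 controls). Sox11 fell by 1.81 ± 0.193, from 42.8 ± 2.21 to 12.2 ± 2.03 CPM (edgeR adjusted p = 5.72e-06), and Sox8 fell by 1.06 ± 0.218 (edgeR adjusted p = 0.00112). The 2 SoxC genes thus changed in opposite directions. Sox9 was higher at day 3 in every control culture, 447 ± 34.7 CPM (SD, n = 4) against 282 ± 5.69 CPM (SD, n = 3), but its log2 change of 0.67 ± 0.415 did not pass in the 14-culture fit (edgeR adjusted p = 0.190). Without replicate 4 of day 3 cKO, whose spread enters that fit, the value was again 0.67 and passed (edgeR adjusted p = 7.44e-06). Trps1 passed there as well, at 0.38 (edgeR adjusted p = 0.0161), while Sox5 (0.06) and Sox6 (0.02) did not.

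In cKO cultures, 6 of 8 members were called, against 62.2% of all genes. Sox4 rose by 1.05 ± 0.172 (edgeR adjusted p = 0.000171). The other 5 fell, with log2 changes of -2.27 ± 0.247 for Sox8 (edgeR adjusted p = 6.16e-06), -1.49 ± 0.189 for Sox11 (edgeR adjusted p = 2.14e-05), -0.92 ± 0.265 for Sox6 (edgeR adjusted p = 0.00833), -0.69 ± 0.184 for Sox5 (edgeR adjusted p = 0.00562) and -0.35 ± 0.123 for Nkx3-2 (edgeR adjusted p = 0.0258). Nkx3-2 therefore changed in opposite directions in the 2 genotypes, and its interaction is given above. Its cKO change missed the threshold without replicate 4 of day 3 cKO (adjusted p = 0.0545) and without replicate 1 of day 0 cKO (adjusted p = 0.115). Sox9 in cKO was -0.08 ± 0.409 (edgeR adjusted p = 0.874). Leaving out replicate 4 of day 3 cKO turned the sign, to 0.26, and the change passed (edgeR adjusted p = 0.0178), as did Trps1 at 0.41 (edgeR adjusted p = 0.0144). The direction of the Sox9 change in cKO therefore depended on that library.

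**Figure D4:**
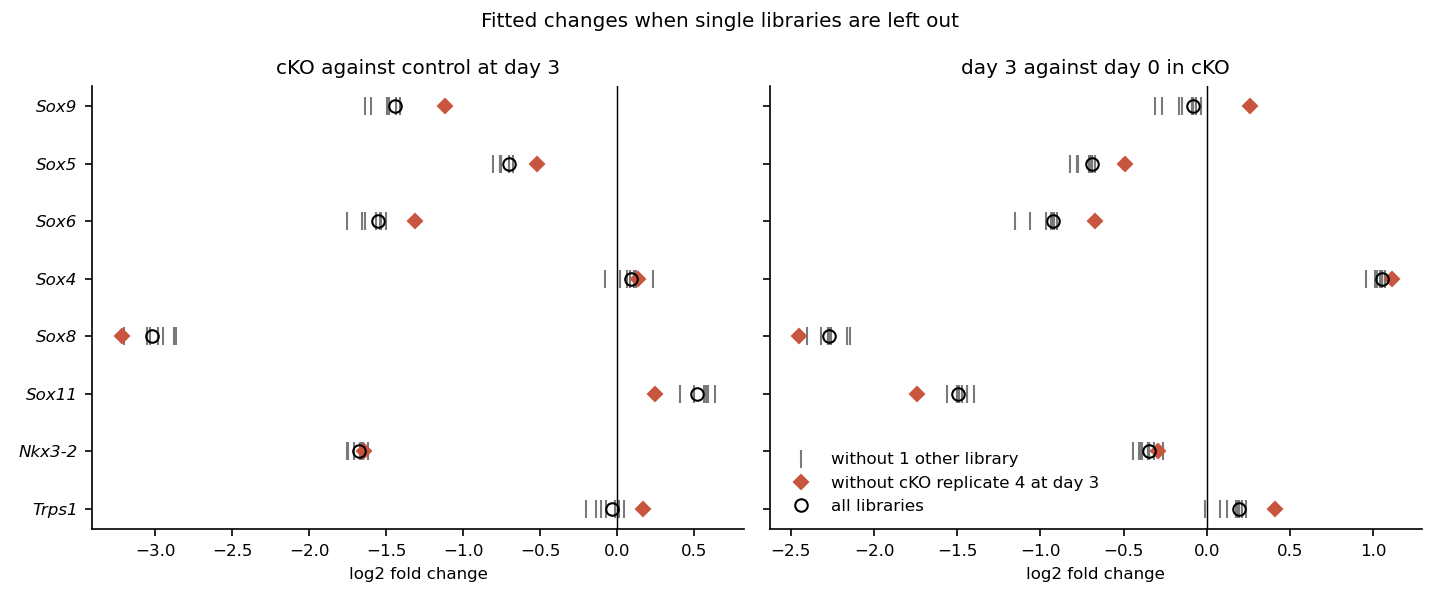
The x axis gives the log2 fold change of each gene for cKO against control at day 3 (left) and for day 3 against day 0 in cKO (right), with all libraries (circles), without replicate 4 of day 3 cKO (red diamonds) and without 1 other library (grey ticks). For Sox9 on the right the circle lies at -0.08 and the diamond at 0.26, across the line at 0.

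In cartilage the genotype effect could also be compared between females and males. None of the 7 members differed between the sexes by edgeR, none had an unadjusted p under 0.05, and DESeq2 gave 0 calls as well; 0.0114% of 8793 genes were called. For Sox9 the effect in females minus that in males was -0.48 ± 0.344 (edgeR adjusted p = 0.992), with 1370.0 and 1734 CPM in the 2 cKO females and 2108 and 2324 CPM in the 2 cKO males. The chondrocyte marker sum was also lower in the 2 cKO females (32739 and 50757 CPM) than in the 2 cKO males (62084 and 61476 CPM). In controls the females held 101151 and 68145 CPM and the males 84543 and 81545 CPM. Each sex had 2 samples per genotype, and the part of this sum in the Sox9 values was not tested.

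Levels of different genes were compared per exon length (RPKM) in the cultures; the 3′ libraries of cartilage do not carry a length scale. In day 0 controls Sox9 led at 68.2 ± 1.38 RPKM (SD, n = 3). Sox8, Sox4 and Sox6 followed at 15.4, 15.2 and 14.6 RPKM, where Sox4 overlapped both of the others and these did not overlap each other, then came Trps1 at 10.2, Nkx3-2 at 6.55, and Sox5 and Sox11 at 5.17 and 5.15 RPKM, which overlapped. In day 0 cKO the order was Sox9 (41.8 RPKM), Sox4 (23.7), Trps1 (11.2), Sox6 (9.47), Sox11 and Sox5 (5.81 and 5.29, overlapping), and Sox8 and Nkx3-2 (4.34 and 3.35, overlapping). By this measure Sox8 stood at rank 2 in day 0 controls and at rank 7 in day 0 cKO. The length was the union of all annotated exons, 3118 bases for Sox8, 4795 for Sox4 and 14832 for Sox6. A transcript in use can be shorter than this union, and which transcripts were expressed was not tested. The order of genes at close levels therefore depends on the lengths used.

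At day 3 the controls kept Sox9 first at 108 ± 8.40 RPKM (SD, n = 4), ahead of Sox4 at 46.7, with Sox6 and Trps1 (14.8 and 13.2) overlapping, Nkx3-2, Sox8 and Sox5 (8.53, 7.42 and 5.39) each overlapping the next, and Sox11 last at 1.47 RPKM. In day 3 cKO, Sox4 at 49.1 ± 5.63 RPKM overlapped Sox9 at 39.5 ± 21.3 RPKM (SD, n = 4). The next were Trps1 (12.8 RPKM), Sox6 (4.99), Sox5 (3.28), Nkx3-2 (2.63) and Sox11 (2.07), each overlapping its neighbour, and Sox8 was last at 0.901 RPKM, apart from the rest. In RPKM over union exon lengths (4135 bases for Sox9, 14832 for Sox6 and 14376 for Sox5) the trio was not at equal levels. By this measure Sox9 exceeded Sox6, and Sox6 exceeded Sox5, in the mean of each group.

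**Figure D5:**
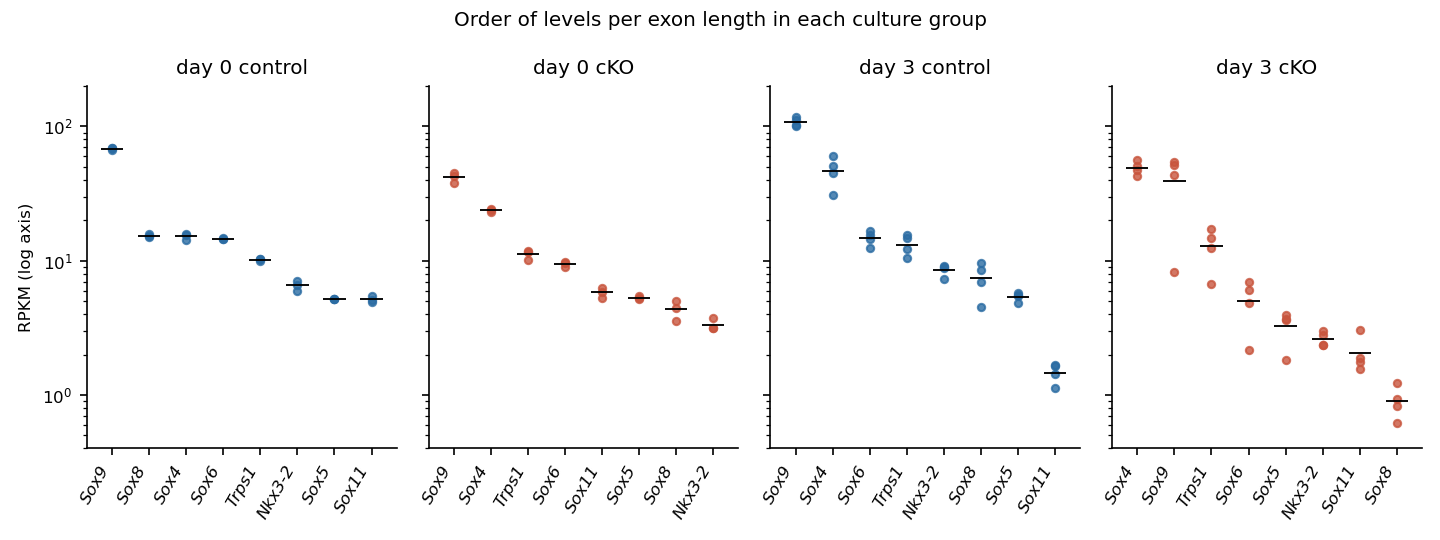
Each panel is 1 culture group, with the genes in order of mean level on the x axis and RPKM on a log y axis; points are libraries and lines are means. By union exon length, Sox9 is first in 3 of the 4 groups, and Sox8 moves from rank 2 in day 0 controls to rank 8 in day 3 cKO.

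Genes with the most similar pattern were found by Pearson's r of log2 CPM over the 14 cultures, among 11864 genes, as a description; the cultures share 4 groups and replicate 4 of day 3 cKO. For Sox9 the nearest was Idh2, a mitochondrial isocitrate dehydrogenase (r = 0.994, and 0.982 without that culture). Then came Slc27a3, Fbxo2, Mia and Cnmd (0.989 to 0.969, and 0.969 to 0.926 without it). For Sox5 they were Ptpa (0.988, and 0.968 without that culture), Ikzf4, Acat2, Map7d3 and Spin4 (0.965 to 0.960, and 0.940 to 0.896 without it). For Sox6 they were Lpar4 (0.993), St3gal4, Pdk3, Xylt1, an enzyme of proteoglycan synthesis, and the cartilage collagen gene Col9a1 (0.988 to 0.983). Without that culture these 5 were at 0.985 to 0.965. Within the trio r was 0.923 for Sox5 with Sox6, 0.883 for Sox9 with Sox6 and 0.835 for Sox9 with Sox5, and without that culture 0.835, 0.714 and 0.430.

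The 22 cartilage genes listed as targets of the trio, which include the 9 chondrocyte markers, were all lower in cKO at day 0; their median log2 fold change was -2.01, against 0.01 over all genes, of which 31.6% were called lower. Matn1, a cartilage matrilin, was at 3324 CPM in controls and 245 CPM in cKO (-3.76 ± 0.231; edgeR adjusted p = 1.15e-06), and Matn4 and Col9a2, a collagen IX chain, were also lower (-2.78 and -2.59). At day 3, 18 of 22 were lower and none higher (median -2.87), against 22.6% of all genes called lower, and 22 of 22 were lower without replicate 4 of cKO (median -2.50). Matn1 (-6.13 ± 1.22), Col11a2 (-3.96 ± 0.794) and Col9a1 (-3.93 ± 0.867) are named by size. In cartilage 4 of 22 were lower and none higher (median -0.39), against 3.04% of all genes called lower, among them Col9a3 (-0.83), Matn3 (-0.80) and Hapln1, the link protein of aggrecan (-0.73). The interaction was called for 1 of 22 genes, negative, against 16.8% of all genes. Without replicate 4 of day 3 cKO it was called for 9 negative and 1 positive of 22, against 27.3% of all genes.

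Of the 9 listed cofactors of SOX9, 4 were higher and 4 lower in cKO at day 0, where 64.5% of all genes were called. Arid5b, a subunit of a histone demethylase complex that acts with SOX9, was higher at 65.9 against 26.2 CPM (1.33 ± 0.047; edgeR adjusted p = 4.56e-08) and again at day 3 (1.55 ± 0.142; edgeR adjusted p = 7.34e-05). Arid5a (-0.63) and the Mediator subunit Med12 (-0.37) were lower at day 0. At day 3, 2 were higher and 2 lower, where 48.1% of all genes were called: Ppargc1a, a metabolic coactivator, was lower, at 0.612 against 7.0 CPM (-3.49 ± 0.277), and Zfp219 was higher (0.42 ± 0.105). In cartilage none of 5 tested was called by edgeR, and 1 had an unadjusted p under 0.05. Among 13 other Sox genes, 5 were tested at day 0 (64.5% of all genes called), where Sox7 (-2.33 ± 0.129, 1.5 against 7.55 CPM) and Sox12 (-0.38 ± 0.077) were lower and 2 were higher. Those 2 were at a low level (mean log2 CPM of -2.20 and -1.74) and were not tested at day 3 or in cartilage. At day 3, Sox12 (-0.80 ± 0.192) was the one called of 2 tested, and in cartilage 0 of 2 were called by edgeR, with 0 at an unadjusted p under 0.05.

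Genes of chondrocyte maturation were mixed in culture. At day 0, 3 of 12 were higher and 4 lower in cKO, and at day 3, 5 of 11 were higher and 3 lower, against 64.5% and 48.1% of all genes called in either direction. Spp1, the gene of osteopontin, was at 3051 against 267 CPM at day 3 (3.52 ± 0.328), and Alpl, an alkaline phosphatase of mineralizing cells, at 334 against 46.4 CPM (2.87 ± 0.290). Ihh, the hedgehog ligand of prehypertrophic chondrocytes, was lower at 1.1 against 8.25 CPM (-2.88 ± 0.342). In cartilage 7 of 11 were lower and none higher, against 3.04% of all genes called lower, such as Panx3 (29.3 against 97.9 CPM; -1.65 ± 0.329) and Runx2, the maturation factor (-0.66 ± 0.171).

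Of 13 regulators of limb and joint mesenchyme, 7 were higher and 4 lower in cKO at day 0, and 7 were higher and 2 lower at day 3, against 64.5% and 48.1% of all genes called. Gdf5, a joint ligand, was higher at day 0 (45.4 against 17.7 CPM; 1.36 ± 0.077) and Gli2, a hedgehog effector, lower (-0.95 ± 0.064). At day 3 Prrx2 was at 85.5 against 23.1 CPM (1.91 ± 0.221), and the homeobox gene Msx2 (2.26 ± 0.503) and the paired-box gene Pax9 (1.93 ± 0.277) were also higher. None of 10 tested was called in cartilage by edgeR, and 4 had an unadjusted p under 0.05. These lists and their genes were chosen with earlier results known, and their counts are descriptions.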

How the data were processed

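RNA was measured in 14 cultures and 8 cartilage samples. Per the labels' protocols, a stranded kit served for the cultures and a barcoded 3′ method with molecular identifiers for cartilage. The submitters' processing notes name Trim Galore 0.6.7, HISAT2 2.2.1, featureCounts 2.0.1, UMI-tools 1.1.1, DESeq2 1.34.0 and GRCm38, with no roles. For the cultures the authors deposited 1 table of estimated counts for each day, and for cartilage whole-number counts, with a second cartilage table of estimated counts used as an alternative. Estimated counts were rounded. Number of per-sample columns not used: 0.

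Each comparison was fitted over all genes with edgeR 4.0.16 in R 4.3.3 (TMM, filterByExpr with a minimum count of 10, quasi-likelihood test, Benjamini-Hochberg adjustment over all genes tested, calls at 0.05), with sex as a covariate in cartilage; the code was tested on simulated data. The SE is the log2 fold change divided by the root of the F statistic. The labels call the culture samples biological replicates; whether the cartilage samples were separate animals is not stated, so p-values there measure the spread between these samples. RPKM used union exon lengths of GENCODE M21.

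All members are named. From each list, up to 3 genes per genotype comparison were named, by absolute change, from those called whose groups did not overlap and whose log2 CPM averaged 1 or more, and 5 genes were named by correlation (prior count 2). The members and lists were chosen with earlier results of these data known. Alternatives were RLE size factors, DESeq2 1.42.0, no filter, a replicate block, joint fits, no sex covariate, the estimated counts and leaving out each library. At 3 counts or fewer a gene was taken as at the floor, which was at most 0.0719 CPM for day 0, 0.208 CPM for day 3 and 2.73 CPM for cartilage, for counting error only.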

Additional observations from a re-analysis of the deposited data

Results flagged for a closer look

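Sox5 in replicate 4 of cKO at day 3, at 26.4 CPM, lay far from the other 3 cultures of its group relative to the group's range, by Dixon's criterion. It was the 1 such library among 30 groups of 4 examined for the members, and chance gives about 1 in 20. The same culture had the lowest chondrocyte marker sum.

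The genotype effect on Sox8 differed between day 3 and day 0 by -1.22 on the log2 scale, and that on Nkx3-2 by -0.73, by the interaction test of edgeR (adjusted p = 0.0252 and 0.0124, n = 14 cultures). Both genes were lower in cKO in every culture at both times. The Sox8 call was lost in 5 of 14 fits without 1 library, and 16.8% of all genes were called in this test. Day, BMP2, count table and depth changed together between the times.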

How the results depend on the processing

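The number of members called at day 0, 6, was 3 when all 14 cultures were fitted together and 5 in that fit without replicate 4 of day 3 cKO, an alternative added after seeing the data. At day 3 the number called, 5, ran from 5 to 6 over 6 alternative settings. In cartilage the number called, 1, was 0 with DESeq2, 0 on the estimated counts and 2 with no filter on low counts; at an unadjusted p under 0.05, 3 members passed with DESeq2 and 3 on the estimated counts. Without single libraries the number called ran from 5 to 6 at day 0, 4 to 5 at day 3, 0 to 1 in cartilage, 1 to 5 for the interaction, 3 to 6 for the control change over days, 5 to 7 for the cKO change, and stayed 0 to 0 for the sex difference. Sox9 between days in cKO was -0.08 and ran from -0.31 to 0.26, the latter without replicate 4 of day 3 cKO. The cause of these shifts was not tested. Of 829 values of single members under alternatives, 753 kept direction and call, 28 lost the call, 15 gained it and 33 changed sign. Apart from Sox9 in cKO without that library, none of those that changed sign was called. They were 0.17 for Trps1 at day 3 in the joint fit without that library, 0.0017 for Sox9 between days in cKO with the replicate block, and -0.0014 for Trps1 and -0.028 for Sox5 for the sex difference with no filter. Without single libraries the values ran from -0.076 to 0.23 for Sox4 and -0.20 to 0.17 for Trps1 at day 3, -0.043 to 0.27 for Sox11 and -0.047 to 0.12 for Trps1 in cartilage, -0.041 to 0.096 for Sox6 between days in controls, -0.0089 to 0.41 for Trps1 between days in cKO, -0.37 to 0.030 for Trps1 in the interaction, and for the sex difference -0.021 to 0.77 for Sox11, -0.52 to 0.57 for Sox4, -0.18 to 0.20 for Sox5, -0.37 to 0.077 for Sox8 and -0.15 to 0.25 for Trps1.

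Replicate numbers did not clearly pair the samples: same-numbered libraries correlated at -0.215 to 0.265 in their deviations from group means. Not every library correlated best with its own number. In cartilage replicates 1 and 2 did (0.265 and 0.0831), and replicates 3 and 4 did not. With so few libraries per group these correlations cannot exclude pairing. With the replicate block the number called was 6 at day 0, 5 at day 3, 1 in cartilage, 3 for the interaction (Sox5 added), 4 and 5 for the changes over days and 0 for the sex difference.

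Sox8 rested on 31 to 93 counts per sample in cartilage and on 39 to 66 in day 3 cKO; whether depth limits the calls was not tested.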
